A study of Arabidopsis thaliana with 16 samples.

Results

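AT4G38050 is an Arabidopsis gene on chromosome 4 described as encoding a nucleobase-ascorbate transporter. It was followed through 1 probe set, the only one that the platform annotation pairs with this gene alone, out of 13350 genes with a probe set of 1 gene. The gene had been picked from these same arrays for its response to brassinosteroid without hydrogen peroxide (H2O2) and for the responses to H2O2 with and without the hormone. Its own levels and differences are therefore given as a description, with standard errors and no test.

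Nucleobase-ascorbate transporters are membrane proteins that carry purine and pyrimidine bases such as uracil, xanthine and uric acid into cells. The family takes its name from its members in mammals, some of which carry ascorbate (vitamin C). Plants use such carriers to take up and move bases that the salvage pathway turns back into nucleotides. Brassinosteroids are plant steroid hormones that promote cell expansion, and H2O2 is a reactive oxygen species that acts as a stress and as a signal and is removed in part by ascorbate peroxidases.

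The arrays held total RNA of whole wild-type seedlings of the Col ecotype, aged 12 days and grown in liquid medium. All seedlings spent 1 h in darkness and 30 min in medium with 0, 1, 5, 25, 50 or 100 mM H2O2, and then received 1 µM epi-brassinolide (BL) or the same amount of its ethanol solvent for 1 h in the dark with the H2O2 still present. Without H2O2, BL and solvent had 3 arrays each. Each of the 5 higher doses had 1 array with BL and 1 with solvent, which makes 16 arrays in 12 groups. Wild type, darkness and the liquid medium were common to all groups, and the solvent arrays carried ethanol, so no array was fully untreated. The replicates were numbered, but nothing said that they came from separate cultures, so the spread behind each p-value is that between arrays and may be technical. That spread also takes in how the single arrays at the higher doses departed from the fit. Any BL effect particular to 1 dose is therefore counted in it.

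Values are log2 signals made with GCRMA, on which the lowest value of any array was 2.12 and the array medians lay between 5.52 and 5.72. Across the probe sets kept for tests, solvent replicate 3 at 0 mM stood apart, with Pearson correlations of 0.816 to 0.907 to the other arrays at 0 mM, which correlated with one another at 0.958 to 0.990. Where a call or a direction of a transporter or other listed gene given below changed without it, both values are given. As checks of the tissue, the root gene PYK10 lay between 12.0 and 14.1 on all arrays and the guard cell factor gene FMA between 3.59 and 7.48. The other measured root genes, EXPA7 and EXPA18, were low. They lay between 2.18 and 5.34 at 0 mM and between 2.13 and 2.28 on all arrays under H2O2. None of the 4 shoot markers was paired alone with a probe set.

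AT4G38050 was high on the 3 arrays that had BL and no H2O2, and low on the other 13. With BL at 0 mM the log2 signals were 5.24, 5.29 and 5.78, a mean of 5.44 ± 0.30 (SD, n = 3). With solvent at 0 mM they were 3.52, 3.67 and 3.23, a mean of 3.47 ± 0.22 (SD, n = 3). The groups did not overlap, and the lowest BL array exceeded the highest solvent array by more than either group spanned. The BL response at 0 mM was a log2 difference of 1.97 (SE 0.18), or 3.91-fold on the linear scale. Solvent replicate 3 was the lowest of all 16 arrays for this gene, and the difference was 1.85 without it and between 1.80 and 2.07 when any single array was left out.

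With H2O2 present the gene stayed near its solvent level whether or not BL was given. The 5 solvent arrays read 3.67 at 1 mM, 3.54 at 5 mM, 4.00 at 25 mM, 3.48 at 50 mM and 3.67 at 100 mM. The 5 BL arrays read 3.50 at 1 mM, 3.64 at 5 mM, 3.79 at 25 mM, 3.70 at 50 mM and 3.32 at 100 mM. Both sets overlapped each other and the solvent arrays at 0 mM, and the highest of these 13 values, at 25 mM in solvent, lay 1.24 below the lowest BL array at 0 mM. BL minus solvent was -0.16 at 1 mM, 0.10 at 5 mM, -0.21 at 25 mM, 0.21 at 50 mM and -0.35 at 100 mM. The sign was positive at 2 doses and negative at 3, and the mean was -0.08 ± 0.23 (SD, n = 5 doses; SE in the fit 0.14).

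**Figure D1:**
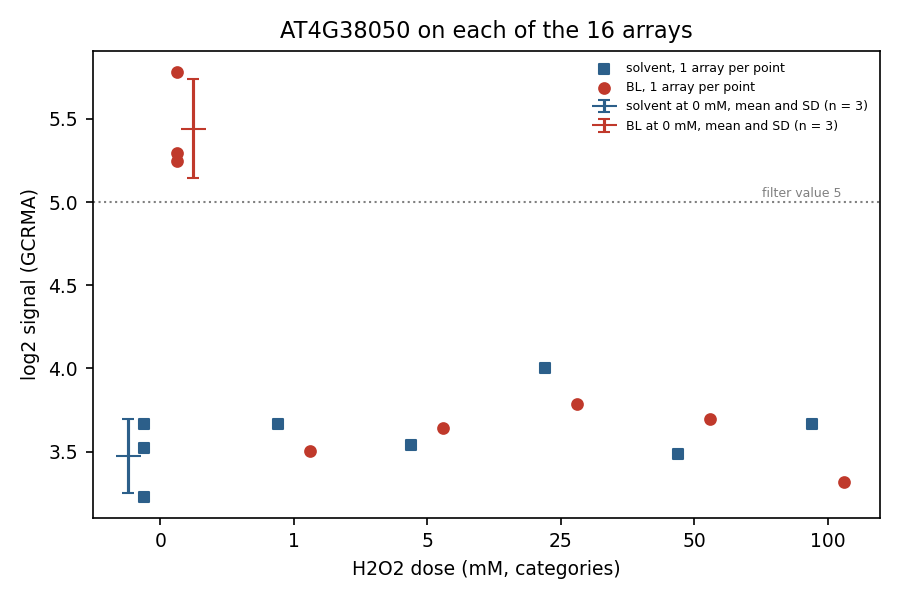
Log2 signal of AT4G38050 (vertical axis, not starting at 0) on each array against H2O2 dose in mM shown as categories, with squares for solvent, circles for BL, and bars for the mean and SD of the 3 arrays at 0 mM. The 3 BL arrays at 0 mM sit between 5.24 and 5.78, and the other 13 between 3.23 and 4.00.

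The H2O2 response of AT4G38050 was large on the BL arrays and small on the solvent arrays. In the BL arrays the signal was lower than the 0 mM mean at all 5 doses, by a log2 difference between -2.12 at 100 mM and -1.65 at 25 mM, with a mean of -1.85 (SE 0.16). The linear ratio of BL at 0 mM to BL with H2O2 was 3.61. In the solvent arrays the signal was above the 0 mM mean at all 5 doses, but by only 0.01 at 50 mM to 0.53 at 25 mM, with a mean of 0.20 (SE 0.16) that was smaller than the SD of the solvent arrays at 0 mM. Without solvent replicate 3 at 0 mM that mean was 0.08. The response to BL under H2O2 minus that at 0 mM was a log2 difference of -2.05 (SE 0.23).

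No order by dose was seen once H2O2 was present. The fitted change from 1 to 100 mM over both BL states was 0.00 (SE 0.17), and it ranged from -0.08 to 0.13 with single arrays left out. The level with BL was about as low at 1 mM as at 100 mM, and no dose below 1 mM was measured.

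**Figure D2:**
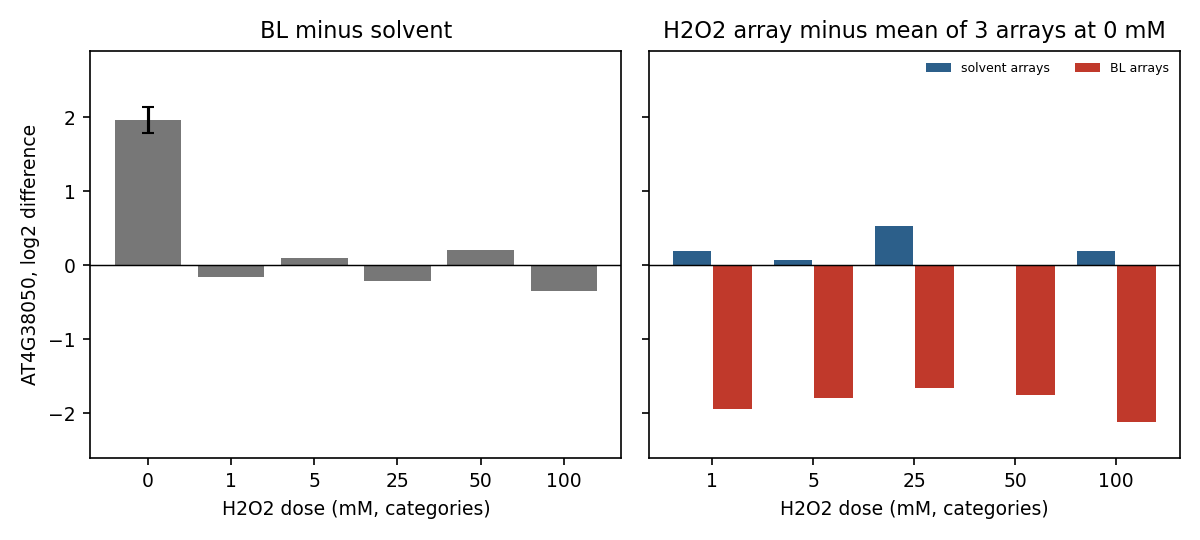
Log2 differences of AT4G38050 by H2O2 dose in mM, with BL minus solvent on the left (the bar at 0 mM is the difference of means of 3 arrays each with its standard error, the others are 1 array minus 1 array) and each H2O2 array minus the mean of its 0 mM group on the right. BL minus solvent is 1.97 at 0 mM and lies between -0.35 and 0.21 at the 5 higher doses, and H2O2 arrays minus 0 mM lie between -2.12 and -1.65 with BL and between 0.01 and 0.53 in solvent.

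The low values of this gene were close to the range in which GCRMA returns repeated numbers. Exactly the same deposited value, 3.67, stood on 3 arrays, namely solvent replicate 2 at 0 mM and the solvent arrays at 1 and 100 mM. Identical values occurred in 49.0% of the 766 kept probe sets with a mean under 5 and in 9.64% of the 12374 with a higher mean. The gene reached the filter value of 5 on the 3 BL arrays at 0 mM alone, so it entered the tests only through the group in which it was high. The deposited values come without detection calls, and whether the 13 low arrays hold expression above background was not tested. In whole seedlings, fewer cells with the transcript and less transcript per cell cannot be told apart.

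The separation itself was common among the 13140 probe sets kept. The 3 BL arrays at 0 mM lay above all 13 others in 1031 probe sets (7.85%) and below all of them in 533 (4.06%). A gap as wide as that of AT4G38050 was found in 15 probe sets in the upward direction, itself included. It was the only one of these 15 with 1 gene in the annotation. Nothing is read from this place, since the cut was its own gap and the gene was picked from these arrays. The next probe sets with 1 gene, AT5G44680 and AT1G78020, had gaps of 1.02 and 0.89. In the downward direction 4 probe sets had a gap as wide as that of AT4G38050. Among them were AT1G63720, at 3.47 with BL at 0 mM against 6.22 to 8.91 on the other arrays, and the UDP-glycosyltransferase gene UGT85A2. These counts were added after the data had been seen and describe how often the pattern occurs.

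Across all kept probe sets, limma called 100 for BL at 0 mM (0.761%), 57 higher and 43 lower. It called 0 for BL under H2O2 (0%), with 122 at an unadjusted p under 0.05, and 8 for the difference between both BL responses (0.0609%). Without solvent replicate 3 at 0 mM these counts were 333, 0 and 110. For BL under H2O2, the 122 of 13140 probe sets are a smaller share than the 0.05 expected without any BL effect. That number was 414 without solvent replicate 3, and 787 in a fit to the 10 arrays above 0 mM alone, which also called 0. It thus depends on the spread taken from the 0 mM arrays, and the 0 calls are not read as an absence of BL effects. The rule that picked AT4G38050 used these contrasts, so nothing is read from its place among them. The other 7 probe sets called for the difference between both BL responses included 3 with 1 gene, which are named because of that call. UGT85A2 stood at 7.94 ± 0.09 (SD, n = 3) with BL at 0 mM and 9.68 ± 0.24 with solvent, while the BL arrays under H2O2 lay between 9.79 and 10.5, a difference of BL responses of 1.66 (SE 0.19, limma adjusted p = 0.0107). Without BL replicate 1 or 3 at 0 mM the adjusted p was above 0.05, at most 0.0601. In solvent UGT85A2 lay between 10.2 and 10.4 under H2O2. It rose there by 0.61 (SE 0.13, limma adjusted p = 0.0102), where 11.2% of all probe sets were called higher, and this call was kept without any single array.

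Of the other 2 named genes, HLL was also highest on the 3 BL arrays at 0 mM, by less, and AT1G71000 had another shape. HLL encodes a mitochondrial ribosomal protein needed for ovule development. It read 6.71 ± 0.07 (SD, n = 3) with BL and 6.04 ± 0.12 with solvent at 0 mM. Under H2O2 it lay between 5.65 and 6.25 in solvent and between 5.23 and 6.10 with BL. Its BL responses differed by -0.94 (SE 0.13, limma adjusted p = 0.0447), a call lost without any of 14 of the 16 arrays (adjusted p up to 0.172). AT1G71000, a DnaJ-type gene, rose with BL at 0 mM from 3.64 ± 0.48 (SD, n = 3) to 7.26 ± 0.15, by 3.62 (SE 0.31, limma adjusted p = 0.00094). Unlike AT4G38050 it was also high under H2O2 without BL, between 6.79 and 9.82, and its BL responses differed by -3.42 (SE 0.39, limma adjusted p = 0.0107), a call lost without BL replicate 1 or 3 at 0 mM (adjusted p up to 0.0601). The remaining 4 probe sets had no gene in the annotation, and lay between 5.16 and 6.81 with BL at 0 mM and between 2.12 and 3.51 on the other arrays. Like AT4G38050, these 4 passed the filter only through the group in which they were high, so their calls are not read as support for the pattern. Naming the genes called in this comparison was decided after the data had been seen.

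The other members of the transporter family were compared with AT4G38050 from a list of 11 further loci assigned to the family from general knowledge. The gene table names 5 of these 11 as nucleobase-ascorbate transporters. The annotation gave a probe set of its own to 4, namely AT5G62890, AT5G49990, AT2G34190 and AT1G49960, which the table leaves without a gene name, and 2 of the 4 passed the filter. For the other 7 loci no probe set was assigned here. Of the 2 tested members, 0 were called for BL at 0 mM, for BL under H2O2, for the difference of both or for H2O2 in solvent, against 0.761%, 0%, 0.0609% and 21.8% of all probe sets. At an unadjusted p under 0.05 those comparisons held 3240, 122, 2131 and 4812 of the 13140 probe sets.

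AT5G62890 was highest on the same 3 arrays as AT4G38050, but by much less, and 7.85% of all kept probe sets showed this separation. Its log2 signals were 9.18, 9.01 and 8.90 with BL and 8.41, 8.83 and 6.36 with solvent at 0 mM. Under H2O2 it lay between 7.67 and 8.02 in solvent and between 7.59 and 7.82 with BL. The BL arrays at 0 mM were above all others, and solvent replicate 3 was below all others by a wide margin. Its BL response at 0 mM was 1.16 (SE 0.49, limma adjusted p = 0.182), and 0.41 (SE 0.15, adjusted p = 0.175) without solvent replicate 3.

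With BL, AT5G62890 fell under H2O2 by 1.32 on the log2 scale (SE 0.44, limma adjusted p = 0.0399), in a comparison that called 33.1% of all probe sets, with 18.7% called lower. That call was lost when any of 13 of the 16 arrays was left out (adjusted p up to 0.126), while the difference itself stayed between -1.40 and -1.25. In solvent its H2O2 response was 0.00 (adjusted p = 0.997) with all arrays and -0.76 (SE 0.13, adjusted p = 0.00168) without solvent replicate 3. Under that setting the difference with BL had an adjusted p of 9.71e-06. The call of the solvent response thus turns on that 1 array.

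AT5G49990 showed no such separation. Its signals were 6.66, 6.68 and 6.86 with BL and 6.01, 6.78 and 4.47 with solvent at 0 mM, and lay between 5.79 and 7.20 under H2O2, so the groups overlapped. Its BL response at 0 mM was 0.98 (SE 0.46, limma adjusted p = 0.215), and 0.34 without solvent replicate 3. From 1 to 100 mM it rose by 0.70 (SE 0.23, limma adjusted p = 0.0321), in a comparison that called 38.2% of all probe sets, with 22% called higher. Leaving out any of 6 of the 10 arrays ended that call (adjusted p up to 0.0736), and the change was 0.46 without the solvent array at 100 mM. Its H2O2 response with BL was -0.58 (SE 0.41, limma adjusted p = 0.309), and the same difference was called without solvent replicate 3 (SE 0.21, adjusted p = 0.0387).

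The last 2 members stayed low. AT2G34190 had a median of 2.97 over the 16 arrays, with a lowest value of 2.71 and a highest of 3.82 on the 1 mM solvent array. AT1G49960 was at 2.12 to 2.16 on all arrays, at the bottom of the scale. Neither entered the tests, and neither was raised on the BL arrays at 0 mM.

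**Figure D3:**
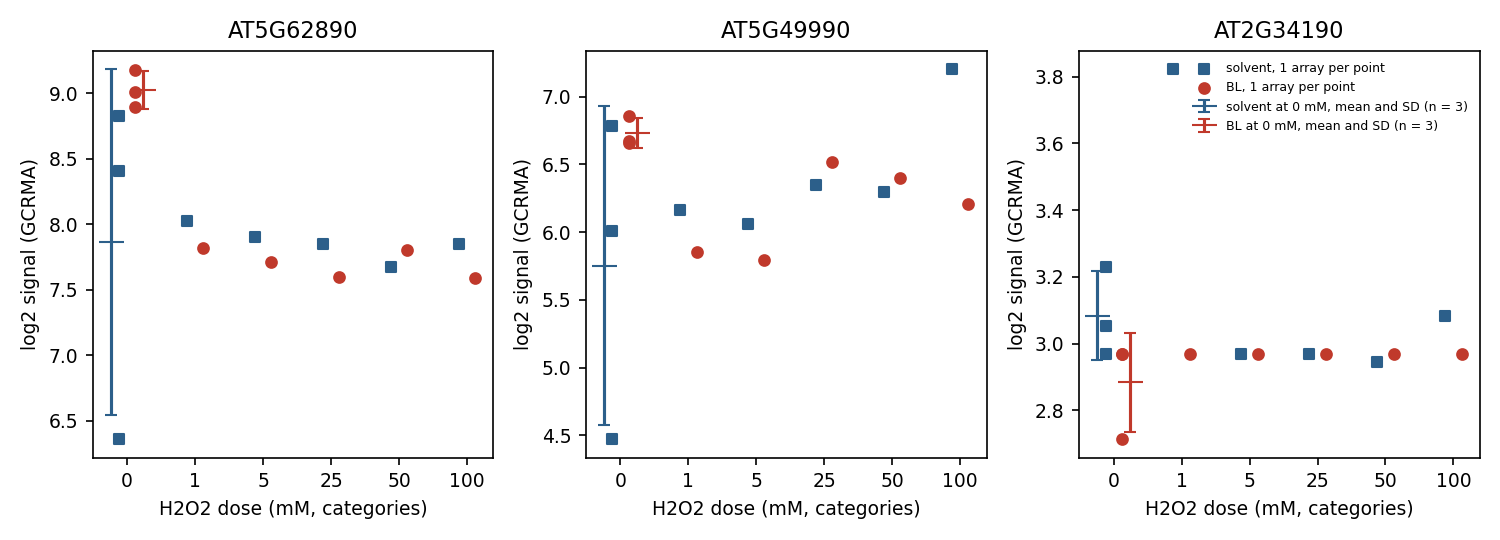
Log2 signal (vertical axes with different ranges, not starting at 0) of AT5G62890, AT5G49990 and AT2G34190 on each array by H2O2 dose in mM, with squares for solvent, circles for BL, and bars for the mean and SD of 3 arrays at 0 mM. AT5G62890 spans 8.90 to 9.18 with BL at 0 mM and 7.59 to 8.02 under H2O2, and solvent replicate 3 is the lowest point for it, at 6.36, and for AT5G49990, at 4.47.

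Genes that handle the presumed cargo were taken from lists of other nucleobase and nucleoside carriers, nucleobase salvage, and ascorbate synthesis and use. Of 17 other carrier genes 1 had its own probe set, the purine carrier gene AZG1, which did not pass the filter and lay between 2.96 and 3.65 at 0 mM and between 3.13 and 4.89 under H2O2. Its highest values were 4.89 and 4.82, on the solvent and the BL array at 1 mM. Of 12 salvage genes 2 were measured. UPP, for a uracil phosphoribosyltransferase, lay between 7.72 and 7.93 with BL at 0 mM and between 7.16 and 7.50 with BL under H2O2, and fell by 0.44 (SE 0.15, limma adjusted p = 0.0418), where 33.1% of all probe sets were called and 18.7% were called lower. This call was lost when any of 14 of the 16 arrays was left out (adjusted p up to 0.145). In solvent UPP differed by -0.12 under H2O2 (limma adjusted p = 0.592), and by -0.33 (SE 0.10, adjusted p = 0.0254) without solvent replicate 3. HGPT, for a hypoxanthine-guanine phosphoribosyltransferase, differed by -0.19 with BL (adjusted p = 0.309).

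Of 17 ascorbate genes 6 were measured and passed the filter, and 0 of them were called for BL at 0 mM, where 0.761% of all probe sets were. Their median there was 0.30 against 0.08 over all probe sets, and 0.13 against 0.03 without solvent replicate 3. For H2O2 in solvent 1 rose and 1 fell, where 11.2% and 10.6% of all probe sets did, with a median of -0.02 against -0.03 over all, and of -0.12 against -0.08 without solvent replicate 3. VTC4, whose product makes L-galactose on the way to ascorbate, rose by 0.51 (SE 0.14, limma adjusted p = 0.0236), from 7.12, 7.18 and 7.08 at 0 mM to between 7.42 and 7.86. That call was lost without solvent replicate 1 at 0 mM or the solvent array at 1, 25, 50 or 100 mM (adjusted p up to 0.0809). Over 1 to 100 mM VTC4 rose by 0.48 (SE 0.09, limma adjusted p = 0.00255), a call kept without any single array.

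SAPX, the stromal ascorbate peroxidase gene, fell by 0.78 in solvent (SE 0.14, limma adjusted p = 0.004), from 8.23, 8.12 and 8.54 to between 7.28 and 7.75, and the call held without any single array. With BL it differed by -0.36 (limma adjusted p = 0.0724). For H2O2 with BL 0 of the 6 ascorbate genes were called, against 33.1% of all probe sets, and this count rests on solvent replicate 3. Without that array 3 of the 6 were called lower, where 52.3% of all probe sets were called and 30.6% were called lower. These were AT4G33670 at -0.39 (adjusted p = 0.00545, and 0.0868 with all arrays), SAPX at -0.36 (0.0266) and the thylakoid ascorbate peroxidase gene TAPX at -0.32 (0.0312, and 0.149 with all arrays). The differences themselves did not move, since the array is not among those compared, but the estimated spread did. GME, GLDH, TAPX and AT4G33670, listed as the L-galactose dehydrogenase gene, had adjusted p between 0.0516 and 0.961 for H2O2 in solvent, where AT4G33670 differed by 0.01 with all arrays and by -0.22 (adjusted p = 0.141) without solvent replicate 3. For BL 0 of the 8 tested salvage and ascorbate genes were called at 0 mM or under H2O2, where 0.761% and 0% of all probe sets were, so the count says nothing particular about them.

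Lists of brassinosteroid genes could say little, since 0 of 14 synthesis and signalling genes were paired alone with a probe set. Of 12 genes known to be raised by the hormone 3 had one. XTH19, for a xyloglucan endotransglucosylase that remodels cell walls, read 8.55, 8.08 and 8.31 with BL and 7.30, 7.43 and 7.64 with solvent at 0 mM. Those groups did not overlap, and its BL response was 0.86 (SE 0.25, limma adjusted p = 0.112). Under H2O2 its BL minus solvent difference was -0.13 (SE 0.19). Unlike AT4G38050, XTH19 was also high in solvent at 5, 25 and 50 mM H2O2, at 8.21, 8.63 and 8.28. At 1 and 100 mM in solvent it read 7.295 and 7.31. XTH18 differed by -0.48 at 0 mM (limma adjusted p = 0.472) with solvent replicate 3 at 13.1, above the other arrays, and by 0.15 (adjusted p = 0.78) without that array, so its direction is not settled. The expansin gene EXPA8 stayed between 2.12 and 2.61.

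The genes whose pattern was most like that of AT4G38050 were SPT, AT4G35335, AT3G12180, AT3G02900 and AT3G49720, with Pearson correlations of 0.930, 0.928, 0.920, 0.916 and 0.911 over the 16 arrays, among 7039 probe sets with 1 gene. SPT encodes a basic helix-loop-helix transcription factor known from carpel development and seed germination. It read 7.21, 7.003 and 7.10 with BL at 0 mM and between 6.01 and 6.36 on all other arrays. AT4G35335 read 6.81, 6.79 and 6.84 against 5.77 to 6.31. In all 5 genes the 3 BL arrays at 0 mM lay above the other 13, by gaps of 0.17 to 0.65 that were narrower than the 1.24 of AT4G38050. The 5 genes were picked by their likeness over arrays that include these 3. AT4G38050 had the widest such upward gap among probe sets with 1 gene. Neither point is therefore read as support for the pattern.

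These correlations rest on the 3 BL arrays at 0 mM. Over the other 13 arrays the same 5 genes had correlations of 0.226 to 0.617 with AT4G38050. Without solvent replicate 3 at 0 mM, 3 of the 5 remained among the 5 highest, and 0 did with Spearman's correlation. The most opposite genes were UGT85A2, AT4G36790 and AT3G60110, at -0.908, -0.898 and -0.898, with 0.125, 0.03 and -0.41 over the other 13 arrays. UGT85A2 read 8.02, 7.84 and 7.95 with BL at 0 mM and between 9.42 and 10.5 elsewhere. AT4G36790 lay between 5.73 and 5.96 with BL at 0 mM and between 6.72 and 7.38 elsewhere.

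**Figure D4:**
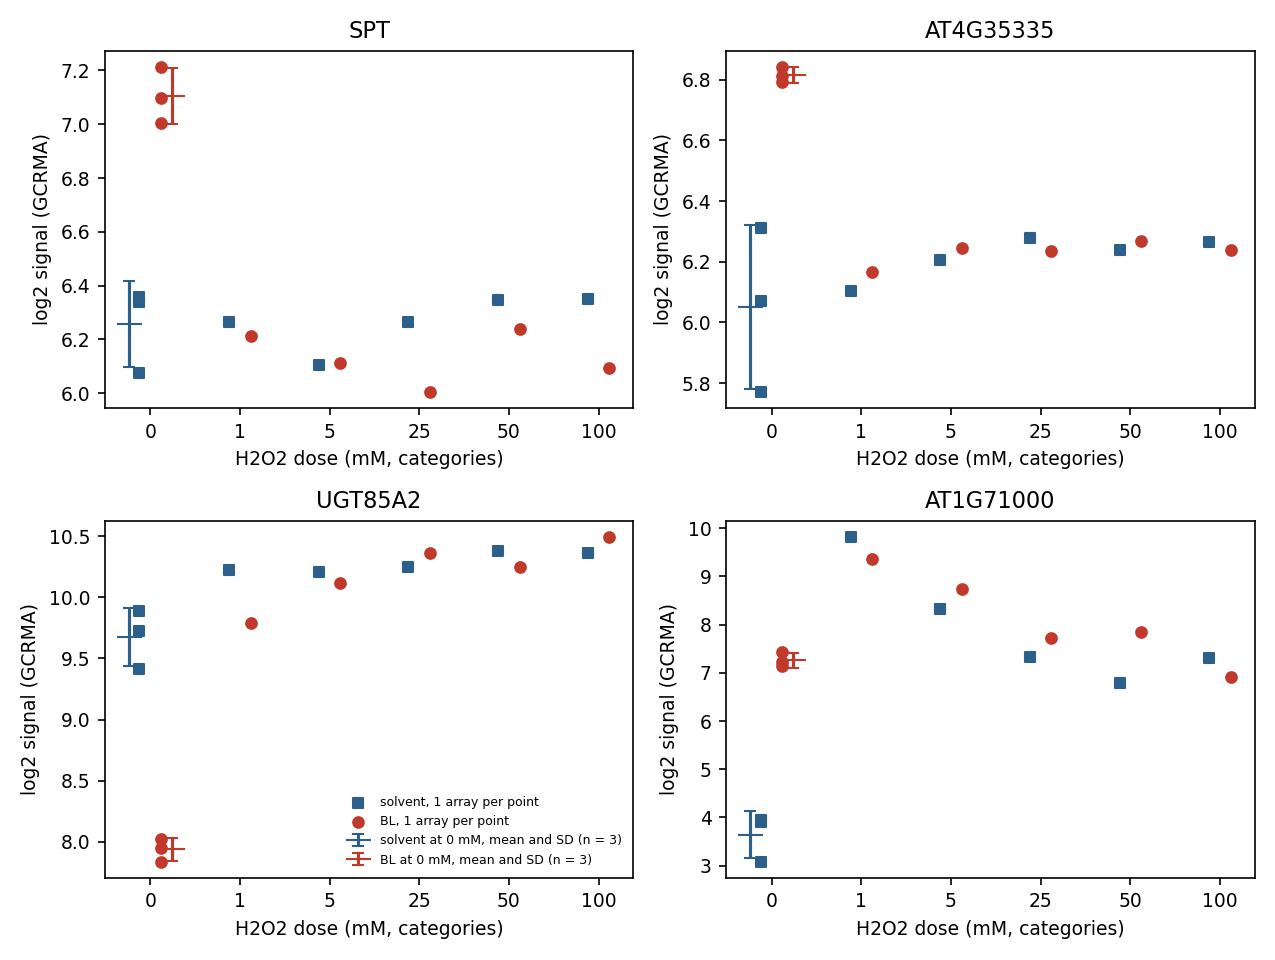
Log2 signal (vertical axes with different ranges, not starting at 0) of SPT, AT4G35335, UGT85A2 and AT1G71000 on each array by H2O2 dose in mM, with squares for solvent, circles for BL, and bars for the mean and SD of 3 arrays at 0 mM. The BL arrays at 0 mM are the highest for SPT (7.003 to 7.21) and AT4G35335 (6.79 to 6.84) and the lowest for UGT85A2 (7.84 to 8.02), whereas AT1G71000 is low on the 3 solvent arrays at 0 mM alone (3.09 to 3.95).

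In neither measured neighbour of AT4G38050 did the 3 BL arrays at 0 mM lie above all the others. Of the 6 nearest genes in the order of the RefSeq list, 3 on each side, 2 were measured, and both passed the filter. AT4G38040, the adjacent gene, lay between 8.31 and 8.45 with BL and between 8.12 and 8.51 with solvent at 0 mM, a difference of 0.12 (SE 0.12, limma adjusted p = 0.509). Its group mean was highest with BL at 0 mM, at 8.38, and was 8.15 with BL under H2O2. That H2O2 response with BL was -0.23 (SE 0.11, limma adjusted p = 0.111). It was not called in 15 of the 16 fits with 1 array left out (lowest adjusted p 0.0213). AT4G38020 lay between 7.54 and 7.57 with BL and between 7.31 and 7.46 with solvent at 0 mM, a difference of 0.19 (SE 0.13, adjusted p = 0.336). It rose under H2O2 in solvent by 0.37 (SE 0.11, limma adjusted p = 0.0427), a call lost without any of 13 of the 16 arrays (adjusted p up to 0.126).

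Other measures moved with H2O2 as well. FMA, the guard cell marker, read 7.30, 7.12 and 7.48 with BL at 0 mM and between 4.69 and 5.84 with BL under H2O2, and fell by 2.03 (SE 0.29, limma adjusted p = 0.000807). In solvent it fell by 1.88 (SE 0.29, limma adjusted p = 0.00181), a call lost in a fit to the 8 solvent arrays alone (adjusted p = 0.0617). Of all probe sets, 18.7% were called lower with BL and 10.6% in solvent. From 1 to 100 mM FMA fell by 1.35 (SE 0.38, limma adjusted p = 0.0172), where 38.2% of all probe sets were called. That call was lost without the filter (adjusted p = 0.0742). The root hair expansin genes EXPA7 and EXPA18, which did not pass the filter, lay between 3.80 and 5.34 with BL at 0 mM. Under H2O2 they lay between 2.13 and 2.28 on all arrays, with BL and with solvent alike, near the lowest value of the scale. In solvent at 0 mM they read 4.19, 4.24 and 2.28, and 3.89, 4.58 and 2.18, and so were low on replicate 3. PYK10 with BL differed by 0.14 under H2O2 (adjusted p = 0.753), as a mean over the doses. From 1 to 100 mM it rose by 0.95 (SE 0.09, limma adjusted p = 3.49e-05), a call kept without any single array. That comparison called 22% of all probe sets higher. XTH14 had no probe set of its own.

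RNA quality and labelling were read from 3 pairs of control probe sets at the 3' and 5' ends of a transcript. The 3' signal exceeded the 5' signal by a mean log2 of 0.33 ± 0.10 (SD, n = 3) with BL at 0 mM, 0.31 ± 0.15 (n = 3) with solvent at 0 mM, 0.53 ± 0.16 (n = 5) with BL under H2O2 and 0.46 ± 0.11 (n = 5) with solvent under H2O2. At 0 mM, where AT4G38050 differed between BL and solvent, FMA differed by 0.26 (limma adjusted p = 0.603) and PYK10 by 0.54 (adjusted p = 0.308), or 0.03 without solvent replicate 3. EXPA7 had means of 4.59 ± 0.77 (SD, n = 3) with BL and 3.57 ± 1.12 with solvent at 0 mM, and EXPA18 of 4.50 ± 0.27 and 3.55 ± 1.23. The BL and solvent arrays overlapped for all 3 root genes, with solvent replicate 3 the lowest at 0 mM in each. The part that cell types or labelling have in the BL response of AT4G38050 at 0 mM or in its lower level with BL under H2O2 was not tested.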

How the data were processed

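The authors deposited 1 table of log2 signals for the 16 arrays. The submitters' processing notes name GCRMA, and neither its version and settings nor the genome build is given in the sources used here. That the scale is log2 follows from the range of the values, which were not scaled again. Of 22810 entries 64 were controls, and 13140 of the other 22746 had a value of at least 5 on at least 2 arrays and were tested. The annotation gave 13513 probe sets 1 gene, 503 several and 8730 none, and 13436 matched the RefSeq TAIR10.1 gene table, used for names and gene order. Where a gene had several such probe sets, that with the highest mean stood for it.

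Tests used limma 3.58.1 in R 4.3.3 with Benjamini-Hochberg adjustment over all kept probe sets, called under 0.05. A fit to all 16 arrays held 4 states (solvent or BL, with or without H2O2) and the dose above 0 mM, with 8 residual degrees of freedom. A slope over log2 dose used the 10 arrays from 1 to 100 mM, with 7. The fits were also run on simulated data with independent normal noise. Those data held no outlying array and no floor, so the run checks the code and says nothing on how stable the calls are. Alternatives were no filter, quantile normalization, fits to subsets, a replicate block and leaving out each array. Genes named are AT4G38050, the listed family, cargo, hormone and marker genes, the 5 most like and 3 most unlike genes and the neighbours. The gene and the lists were chosen with earlier results of these data known. Array number limits the precision. Same-numbered BL and solvent arrays at 0 mM had deviations correlated at 0.183, 0.108 and -0.07, and differently numbered ones at -0.233 to 0.0756. These values do not settle whether the numbers are pairs. The main fit did not take them as pairs, and the replicate block was run as an alternative. No sequence is shown, since the sources used here hold none for this gene.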

Additional observations from a re-analysis of the deposited data

How the results depend on the processing

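The 6 differences given for AT4G38050 moved by less than the pooled SD of the replicates at 0 mM, 0.26, under all 108 alternatives run. Many of these could not move a difference, such as dropping the filter, subset fits, or leaving out an array outside the groups compared. Leaving out single arrays gave 1.80 to 2.07 for the BL response at 0 mM. It gave -1.95 to -1.68 for the H2O2 response with BL. Counts of called probe sets moved more. For BL at 0 mM, called in 100 probe sets, the 6 arrays at 0 mM alone gave 3 and the same arrays with the replicate number as a block gave 0 (974 at an unadjusted p under 0.05), and leaving out single arrays gave 12 to 3761, the highest without solvent replicate 2 at 0 mM. The difference of BL responses gave 8, 13 without a filter, 15 after quantile normalization, and 3 to 1786 without single arrays. H2O2 in solvent gave 2867, 873 on the 8 solvent arrays alone and 1624 to 4767 without single arrays, and H2O2 with BL gave 4348 and 2541 to 6866. The slope gave 5026, and 3306 over dose in mM. Of the 5 genes most like AT4G38050, 3 stayed without solvent replicate 3 at 0 mM, 0 with Spearman and 0 over the other 13 arrays; of the 3 most unlike, 1, 0 and 0 stayed. The correlation over those 13 arrays was added after the data were seen. Of the 10 calls of listed genes, no direction reversed in 166 alternatives, many of which could not move the difference. Of the 166, 45 lost the call. The causes were not tested. Above 0 mM each dose and BL state had 1 array.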
